A study of Mus musculus with 4 samples.

Results

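The 10 genes described here encode ETS transcription factors, named one by one and looked up by symbol in a table of 21090 mouse genes measured by RNA-seq in mammary tumor cell lines. They are Etv1, Etv4, Etv5, Ets1, Ets2, Elk1, Elk3, Gabpa, Etv6 and Fli1, and all 10 were found. The rule that listed them used no measured value, but the members were chosen with earlier results of these data known. A mean of at least 1 RPKM (reads for each kilobase of a gene, scaled to the size of the library) over the 4 libraries was needed for a test, and 9 of the 10 members passed it. Fli1, listed at 0, did not. RPKM is scaled by length, so levels can be compared between genes.

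The study made S100a4 knockout lines to examine the part of S100a4, a small calcium-binding protein, in metastasis. By the study's account, all 4 lines have a Pik3caH1047R;Trp53R270H;MMTV-Cre background and trace to a primary mammary tumor of a mouse with lung metastasis. The controls thus carry the activated Pik3ca and mutant Trp53 alleles too. Cre in these mice is driven by MMTV, a promoter active in mammary epithelium. The controls were the parental line and the vector control line. The knockouts were 1 line transduced with a Cas9 and guide RNA lentivirus against S100a4 exon 3 and 1 line transduced against exon 2. In the titles, 3 libraries are of 307 cells and the exon 2 knockout of 308 cells. Whether 308 is another line is not stated, so the exon 2 edit cannot be told apart from such a difference. The labels give no age, clone or culture number. There was 1 library per line (n = 2 per group), so p-values measure the spread between lines.

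ETS factors share a winged helix domain, the ETS domain, that binds DNA around the core GGAA. Many are phosphorylated by Erk at the end of the Ras cascade, and the family holds activators as well as repressors. Several, Etv1, Etv4 and Etv5 among them, are known for roles in branching of the mammary epithelium and in tumor cell invasion.

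Reads assigned to genes numbered between 14567939 and 20353054 per library, and 13469 to 14214 genes were above 0. S100a4 itself was at 3576 and 4741 RPKM in the parental and vector control lines and at 1136 and 1105 in the exon 3 and exon 2 knockouts. For this gene limma gave a log2 change of -1.88 (SE 0.311) and an adjusted p of 0.0731. The study assessed the knockout otherwise, by truncating mutations in the S100a4 transcripts and by loss of the protein on Western blot. The RNA level does not measure either. The study describes the lines as derived from a mammary tumor. Of 6 epithelial markers, Epcam, Cdh1, Krt5 and Krt14 had a mean under 1 RPKM. Krt8 lay between 27.5 and 78.9 RPKM and Krt18 between 6.10 and 60.2. Of 6 mesenchymal markers, Vim lay between 1362 and 2418 RPKM, while Thy1 had a mean under 1 RPKM and was at 0 in 2 libraries. Col1a1, chosen after its values were seen, ran from 6.93 RPKM in the vector control to 670 in the parental line. The parental line and vector control also stood far apart for Col1a2 (808 and 149 RPKM) and Fn1 (606 and 164). They were closer for Vim (2418 and 2060) and Pdgfrb (76.1 and 56.8). In such bulk RNA, fewer cells of a kind and less RNA per cell cannot be told apart.

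Elk3 and Etv4 were the most abundant members, and the expressed ETS genes spanned from 83.6 RPKM down to 1.20. Mean levels over the 4 libraries ran in the order Elk3 (83.6 RPKM), Etv4 (55.4), Ets1 (48.8), Ets2 (30.9), Elk1 (22.3), Etv6 (17.4), Gabpa (15.5), Etv5 (8.43) and Etv1 (1.20), with Fli1 at 0. The order was loose. From Elk3 to Etv5, each gene's range over the libraries overlapped that of the next gene in the order. Etv4 exceeded Elk3 in 1 library, the exon 3 knockout, at 58.7 against 52.5 RPKM. Only below Etv5 did the ranges part, since the lowest Etv5 value was 4.29 RPKM and the highest Etv1 value 1.99. Elk1 varied least among the expressed members, with a highest value 1.48 times its lowest, and Etv1 varied most, at 4.34 times.

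**Figure D1:**
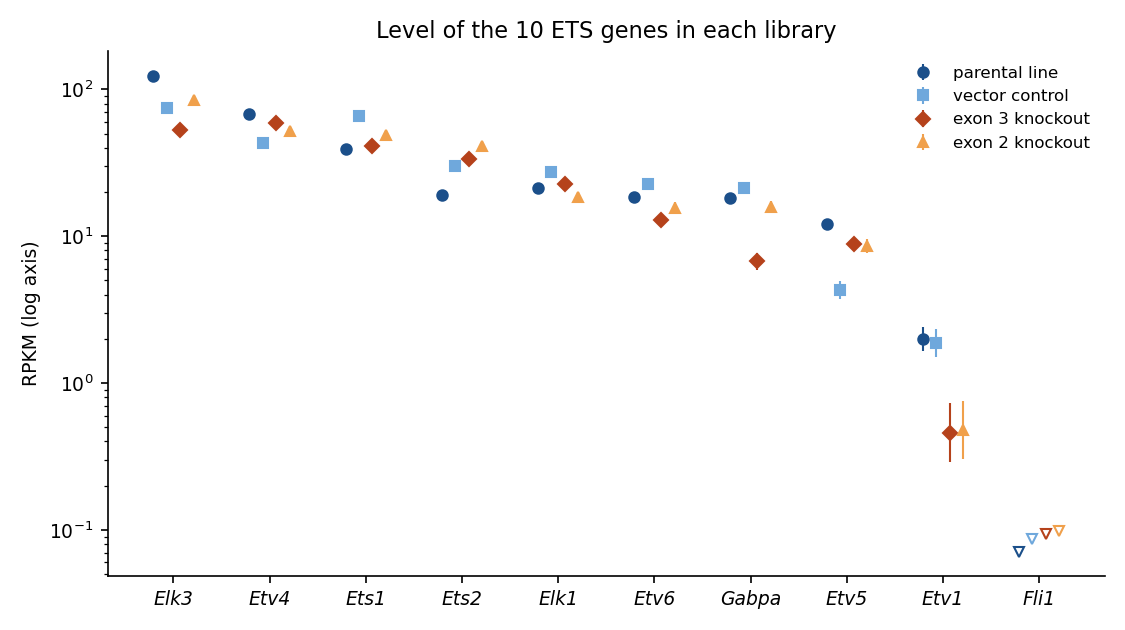
RPKM on a log axis for each of the 10 ETS genes, ordered by mean level. Each filled point is 1 library with its 95% Wilson interval for counting error, and the open triangles for Fli1 mark the RPKM that 3 reads would give, since its count was 0. The Etv1 points of both knockouts lie near 0.46 to 0.48 RPKM, apart from the controls at 1.86 and 1.99, and the groups overlap for 5 of the other genes.

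No member passed the test between knockouts and controls. With limma on log2(RPKM + 1), 0 of the 9 tested members had a Benjamini-Hochberg adjusted p under 0.05, against 0.0184% (2 of 10871) of all tested genes. At an unadjusted p under 0.05 there were 2 members, Etv1 and Gabpa, against 19.1% of all tested genes. Etv1 passed the filter only through the controls, since both knockouts were under 1 RPKM, so a lower value there was built into its being tested. This held for 1.68% of all tested genes and for no other member, and of the other 8 members 1 (Gabpa) had an unadjusted p under 0.05. voom on recovered read counts called 0 members and 0 of all 10871 tested genes. At an unadjusted p under 0.05 it had 1 member, Etv1, against 2038 of all tested genes. The exact permutation test over the 4 libraries can give no two-sided p below 0.333. It gave 0.333 for Etv1, Gabpa, Etv6 and Ets2, 0.667 for Elk1 and Elk3, and 1 for Etv4, Etv5 and Ets1.

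In the separation of the groups the members stood near or under the background, so the counts that follow are no result about them. Both knockouts lay below both controls for 3 of 9 members (Gabpa, Etv6 and Etv1, the last by way of the filter), and this held for 31.2% of all tested genes. Both lay above both controls for 1 member, Ets2, against 21.9% of all tested genes. Requiring a 2-fold distance on the log2(RPKM + 1) scale in each of the 4 pairs left 0 members below, against 1.73% of all tested genes, and 0 above, against 0.267%. The log2 change was under 0 for 6 of 9 members and for 55.0% of all tested genes. Its median was -0.23 over the members and -0.08 over all tested genes.

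**Figure D2:**
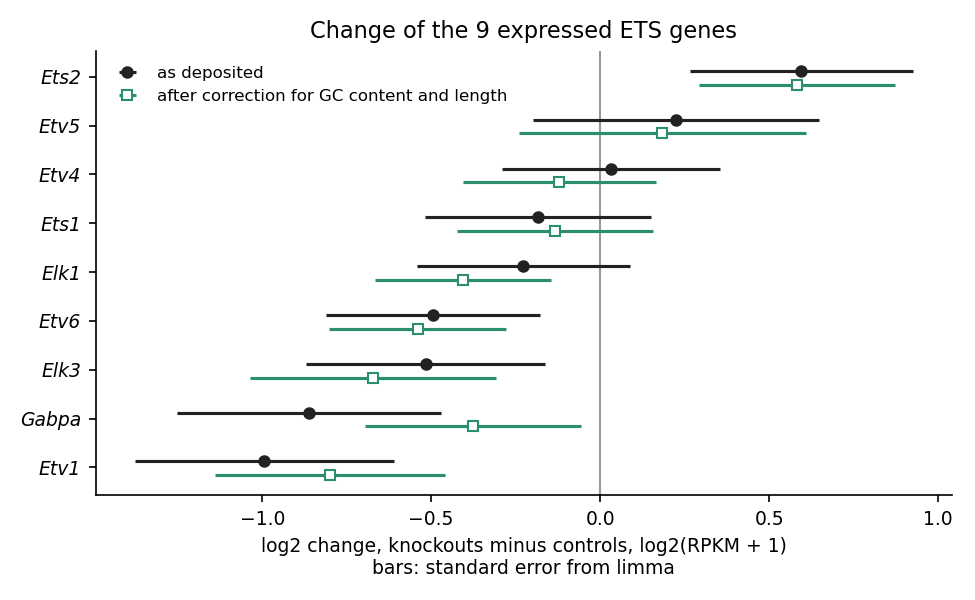
Log2 change (knockouts minus controls, on log2(RPKM + 1)) of the 9 tested ETS genes from limma, with standard errors as bars. Black circles are the deposited values and green squares the values after correction of each library for coding GC content and length. Gabpa shifts the most, from -0.86 to -0.38, and Etv1 stays the lowest at -0.99 and -0.80.

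Lines of the same group also differed from each other. The vector control stood at least 2-fold from the parental line on the log2(RPKM + 1) scale for 1 member, Etv5, and for 8.53% of all tested genes. The exon 2 and exon 3 knockouts stood 2-fold apart for 1 member, Gabpa, and for 4.99% of all tested genes. The median difference of vector control minus parental line was 0.22 over the members and 0.16 over all tested genes on that log2 scale. For exon 2 minus exon 3 knockout it was 0.25 and 0.05.

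**Figure D3:**
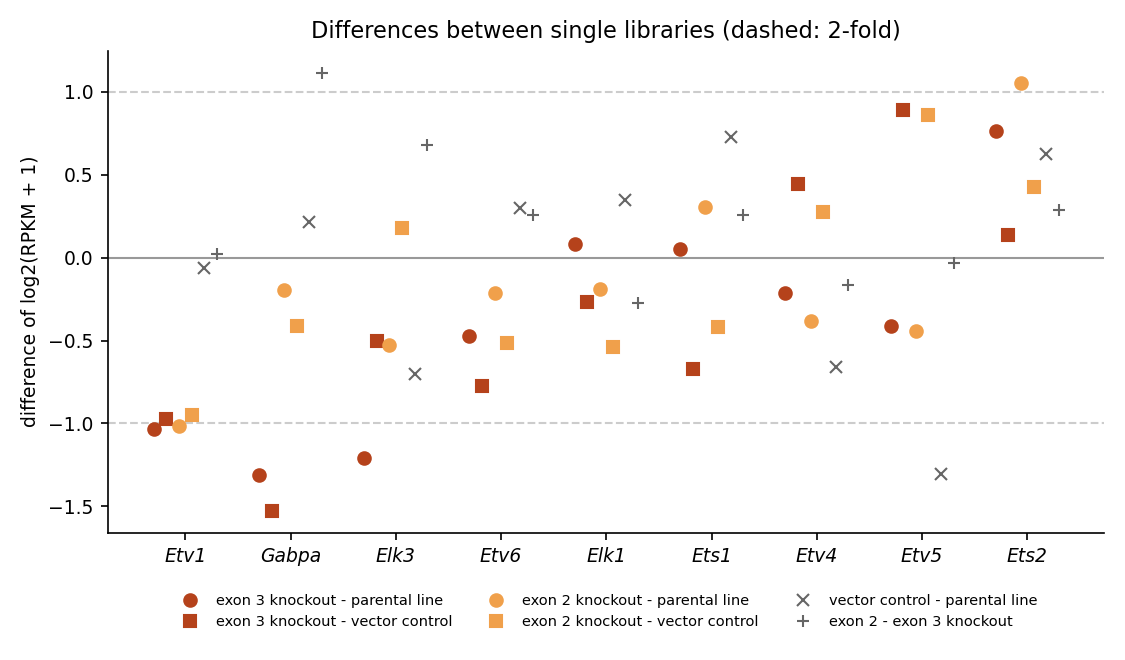
Differences of log2(RPKM + 1) between single libraries for the 9 tested ETS genes, with dashed lines at a 2-fold difference. Filled points are the 4 pairs of a knockout and a control, and gray crosses are the pairs inside a group. The crosses of Etv5 (vector control minus parental line, -1.30) and Gabpa (exon 2 minus exon 3 knockout, 1.12) lie outside the dashed lines.

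Promoter sequence is shown for Etv1 and Gabpa because these were the members with the smallest unadjusted p. RefSeq windows from 250 bases before to 50 bases after a start site (GRCm38.p6) were found for 7 of the 10 members, in 9 windows, and none for Ets1, Etv4 and Fli1. The windows were searched on both strands for CGGAAG, an Ets core with its flanks. It was present in 16.9% of all 32851 windows and in 1 of the 9 windows of the members, that of Gabpa. There it lay on the minus strand, in capitals below as CTTCCG, with its first printed base 93 bases before the start. The Etv1 window is the first of 2, and neither held a match to CGGAAG, so it has no capitals. Only this hexamer was searched for and marked. The core GGAA with other flanks also occurs in both printed windows, in lower case. The other motifs searched, neither of which overlaps the first, were TGAATGAA, the octamer bound by Cic, and TGACTCA, an Ap-1 site. These were in 1.3% and 5.2% of all windows and in 0 of the 9 windows. The GC content was 48.67% for this Etv1 window and 59.33% for Gabpa, beside a median of 52.7% over all windows.
Etv1 promoter, plus strand, chr12:38779832-38780131: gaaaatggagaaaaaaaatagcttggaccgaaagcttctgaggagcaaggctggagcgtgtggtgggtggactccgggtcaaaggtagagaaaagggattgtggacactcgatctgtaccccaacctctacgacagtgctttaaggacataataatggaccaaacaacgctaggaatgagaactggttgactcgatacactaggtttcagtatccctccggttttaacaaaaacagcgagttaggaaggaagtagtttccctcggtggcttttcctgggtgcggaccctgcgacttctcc
Gabpa promoter, plus strand, chr16:84834874-84835173: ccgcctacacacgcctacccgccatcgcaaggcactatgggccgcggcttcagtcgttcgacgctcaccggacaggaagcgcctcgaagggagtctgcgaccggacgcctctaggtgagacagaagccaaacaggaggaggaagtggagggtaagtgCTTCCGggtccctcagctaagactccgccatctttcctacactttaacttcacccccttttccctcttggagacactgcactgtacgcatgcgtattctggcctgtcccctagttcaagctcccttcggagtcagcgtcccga

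Etv1, Etv4 and Etv5 form the PEA3 group, activators induced and phosphorylated downstream of growth factor receptors. Etv1 (ENSMUSG00000004151, chr12:38779380-38870484, plus strand, GRCm38) is also a known oncogene in prostate cancer and gastrointestinal stromal tumors. It was at 1.99 RPKM (104 reads) in the parental line and 1.86 RPKM (79 reads) with the vector. The exon 3 knockout had 0.459 RPKM and the exon 2 knockout 0.479 RPKM, from 18 reads each. Both knockouts were low and close to each other, both controls were higher and close to each other, and the groups did not overlap. The means were 1.93 ± 0.0926 RPKM (SD, n = 2) for controls against 0.469 ± 0.0145 (SD, n = 2) for knockouts, or 24.3% of the control mean. The 95% Wilson intervals for counting error reached down to 1.64 and 1.49 RPKM in the controls and up to 0.725 and 0.758 in the knockouts.

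The limma log2 change of Etv1 was -0.99 (SE 0.383), with an unadjusted p of 0.0244 and an adjusted p of 0.206. As its mean of 1.20 RPKM passed the filter only through the controls, these values are a description rather than support for a difference. At so low a level the pseudocount of 1 compresses the difference. With a pseudocount of 0.1 the log2 change was -1.83 and the adjusted p 0.220, and with voom on recovered reads they were -2.01 and 0.148. On plain RPKM, each knockout stood between 0.230 and 0.257 times each control. The study names Etv1 among its affected genes from these same libraries, so its direction here is not independent evidence.

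Etv4 (ENSMUSG00000017724, chr11:101769742-101785371, minus strand) is the most abundant gene of the group. It was at 68.2 and 42.8 RPKM in the parental and vector control lines and at 58.7 and 52.1 in the exon 3 and exon 2 knockouts. Both knockouts lay between the controls, which differed 1.59-fold from each other. In limma the log2 change came to 0.03 (SE 0.324, adjusted p 0.971). Etv5 (ENSMUSG00000013089, chr16:22381309-22439719, minus strand), which also has a role in self-renewal of spermatogonial stem cells, had the same arrangement. It was at 12.0 and 4.29 RPKM in the parental and vector control lines and at 8.81 and 8.59 in the exon 3 and exon 2 knockouts. The knockouts were nearly equal and lay between controls that differed 2.81-fold. In limma it had a log2 change of 0.22 (SE 0.423, adjusted p 0.798). Without the parental line it was 0.88 and without the vector control -0.43, so its sign depended on which control was used. For Etv4 these values were 0.36 and -0.30. The ratio of Etv4 to Etv5 RPKM was 5.66, 9.98, 6.66 and 6.07 in the parental line, vector control, exon 3 and exon 2 knockouts, and the vector control stood apart as the highest. The group difference in log2 ratio was -0.24 (exact permutation test, two-sided p = 1).

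Ets1 and Ets2, the founding pair of the family, are activators phosphorylated by Erk beside their pointed domain. Ets1 (ENSMUSG00000032035, chr9:32636221-32757820, plus strand) is known from lymphocytes, endothelium and invasive tumor cells. It was at 39.4 and 65.8 RPKM in the parental and vector control lines and at 40.9 and 49.0 in the exon 3 and exon 2 knockouts. The vector control was the highest, with both knockouts inside the range of the controls. Ets1 had a log2 change of -0.18 (limma, SE 0.333, adjusted p 0.787), which was 0.18 when the vector control was left out and -0.55 when the parental line was left out.

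Ets2 (ENSMUSG00000022895, chr16:95702075-95721051, plus strand) was the single member with both knockouts above both controls. It was at 19.2 and 30.2 RPKM in the parental and vector control lines and at 33.3 and 40.9 in the exon 3 and exon 2 knockouts. The vector control and the exon 3 knockout were close, and the parental line was well below the other 3. The means were 24.7 ± 7.77 RPKM (SD, n = 2) for controls against 37.1 ± 5.39 (SD, n = 2) for knockouts, 150% of the control mean. The limma estimate on the log2 scale was 0.60 (SE 0.330, unadjusted p 0.0982, adjusted p 0.346). Leaving out the vector control gave 0.91, and leaving out the parental line 0.28. The ratio of Ets2 to Ets1 RPKM was 0.487 and 0.459 in the parental and vector control lines, against 0.815 and 0.836 in the exon 3 and exon 2 knockouts. The ratio was alike inside each group and the groups did not overlap. The difference in log2 ratio was 0.80 (exact permutation test, two-sided p = 0.333, its floor with 2 libraries against 2). This ratio was 1 of 3 compared. The ratios share no gene but come from the same 4 libraries, so they are not independent. No share over other gene pairs is given beside this separation.

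Elk1 and Elk3 are ternary complex factors, which bind with serum response factor (Srf) at promoters of immediate early genes and are targets of Erk. Elk3, also called Net, represses until it is phosphorylated. Elk1 (ENSMUSG00000009406, chrX:20933395-20950608, minus strand) was at 21.2 and 27.2 RPKM in the parental and vector control lines and at 22.5 and 18.5 in the exon 3 and exon 2 knockouts. The groups overlapped, since the exon 3 knockout lay above the parental line. From limma came a log2 change of -0.23 (SE 0.315, adjusted p 0.711). It was -0.41 after the GC and length correction, -0.40 with the parental line left out and -0.05 with the vector control left out. Leaving out the exon 2 knockout gave -0.09 and leaving out the exon 3 knockout -0.36. Of its coding bases, 42 lie in exons of Uxt on the same strand, so some reads may be shared with that gene.

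Elk3 (ENSMUSG00000008398, chr10:93247414-93311135, minus strand) was at 122 and 74.9 RPKM in the parental and vector control lines and at 52.5 and 84.7 in the exon 3 and exon 2 knockouts. The parental line was the highest and the exon 3 knockout the lowest, and the exon 2 knockout lay above the vector control. Elk3 had a log2 change of -0.52 (limma, SE 0.354, adjusted p 0.436). With the vector control left out it was -0.87, and with the parental line left out -0.16. Leaving out the exon 3 knockout gave -0.18 and leaving out the exon 2 knockout -0.86. Annotated exons of Cdk17 on the opposite strand cover 316 of its 1227 coding bases. Whether the deposited counting used strand is not stated, so the Elk3 level is uncertain to that extent. The ratio of Elk3 to Elk1 RPKM was 5.78 and 2.75 in the parental and vector control lines, against 2.33 and 4.59 in the exon 3 and exon 2 knockouts. These overlapped between groups, with a difference in log2 ratio of -0.28 (exact permutation test, two-sided p = 0.667).

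Gabpa (ENSMUSG00000008976, chr16:84834925-84863779, plus strand) encodes the DNA-binding subunit of GA-binding protein, which pairs with a beta subunit and activates nuclear genes for mitochondrial proteins. It was at 18.2 RPKM (780 reads) in the parental line and 21.3 RPKM (742 reads) with the vector. The exon 3 knockout had 6.74 RPKM (217 reads) and the exon 2 knockout 15.8 RPKM (486 reads). The exon 3 knockout stood far below the other 3, and the exon 2 knockout lay just under the parental line. The means were 19.8 ± 2.19 RPKM (SD, n = 2) for controls against 11.3 ± 6.39 (SD, n = 2) for knockouts. The knockouts differed 2.34-fold from each other, more than the group means did. Gabpa had a log2 change of -0.86 (limma, SE 0.390, unadjusted p 0.0487, adjusted p 0.259). It was -1.42 without the exon 2 knockout and -0.30 without the exon 3 knockout, so the size rested on that library.

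The coding sequence of Gabpa had the lowest GC content of the members, 45.89%, and that of Etv1 the next lowest, 50.45%. In these libraries the log2 change moved with coding GC content across genes (Pearson's r 0.459 over 10772 genes, which share the same 4 libraries and are not independent replicates). After correction of each library for coding GC content and length, limma gave Gabpa a log2 change of -0.38 (SE 0.320, adjusted p 0.622). For Etv1 it was -0.80 (SE 0.340, adjusted p 0.378). The part of GC content in either result was not tested further.

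Etv6 (ENSMUSG00000030199, chr6:134035700-134270158, plus strand), also called Tel, is a repressor that polymerizes through its pointed domain and is a frequent fusion partner in leukemia. It was at 18.4 and 22.8 RPKM in the parental and vector control lines and at 12.9 and 15.7 in the exon 3 and exon 2 knockouts. Both knockouts lay below both controls, and the gap between the exon 2 knockout and the parental line was smaller than that between the controls. The means were 20.6 ± 3.13 RPKM (SD, n = 2) and 14.3 ± 1.94 (SD, n = 2). Etv6 had a log2 change of -0.49 (limma, SE 0.316, adjusted p 0.407) and -0.54 after the GC and length correction. Noncoding transcripts annotated on both strands cover 135 of its coding bases.

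Fli1 (ENSMUSG00000016087, chr9:32422204-32542861, minus strand) is expressed in endothelium, megakaryocytes and other blood cells, and its human counterpart is fused to EWSR1 in Ewing sarcoma. It had 0 reads in each of the 4 libraries. A count of 3, the limit that 0 reads allow, would be 0.0708 RPKM in the parental line and 0.0871 RPKM with the vector, 0.0942 RPKM in the exon 3 knockout and 0.0985 RPKM in the exon 2 knockout. Fli1 was thus not detectable at this depth. Its neighbor Ets1, 93359 bases away, was among the most abundant members. Of 5 endothelial markers, 0 reached a mean of 1 RPKM, and their summed level was 0.186 to 0.443 RPKM in the controls and 0.243 to 0.313 in the knockouts. Emcn was at 0. Of 5 blood cell markers, Ptprc, Itgam and Csf1r had a mean under 1 RPKM and Cd3e was at 0. The summed level of 3.55 to 4.93 RPKM in the controls and 11.6 to 13.2 in the knockouts was nearly all Cd68, a lysosomal protein, at 4.92 and 3.36 RPKM in the parental and vector control lines and at 11.5 and 13.2 in the exon 3 and exon 2 knockouts. Cd68 had a log2 change of 1.39 (adjusted p 0.105 in limma). The part of such cells in any result was not tested.

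Added together, the 10 genes came to 321 and 291 RPKM in the parental and vector control lines and to 237 and 286 in the exon 3 and exon 2 knockouts. Elk1 and Elk3 gave 44.7% and 35.1% of that sum in the parental and vector control lines, against 31.7% and 36.1% in the exon 3 and exon 2 knockouts. Ets1 and Ets2 gave 18.3%, 33.0%, 31.3% and 31.5% in the same order, with the parental line apart from the other 3. The PEA3 group gave 25.6%, 16.8%, 28.7% and 21.4%. In each of these shares the controls differed from each other by more than the knockouts did.

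**Figure D4:**
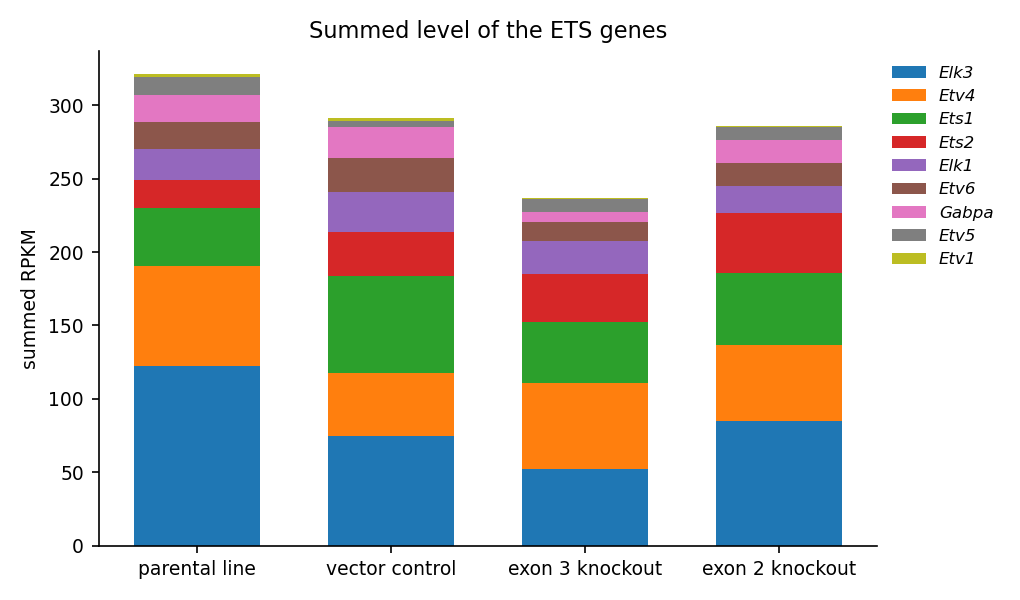
Summed RPKM of the ETS genes in each library, stacked by gene from the most to the least abundant, on an axis from 0. The totals are 321, 291, 237 and 286 RPKM from left to right, Elk3 takes the thickest layer in the parental line, and Etv1 is barely visible at the top.

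Other genes of the same pathway were counted from lists, none of which had a member past the adjusted threshold in limma. Besides the 10 members, 15 further ETS genes were in the table used here, Spi1 was not analysed here, and 7 of the 15 were tested. These counts are given beside the shares of all tested genes, which were 19.1% with an unadjusted p under 0.05, 31.2% with both knockouts below both controls and 21.9% with both above. Of the 7, 2 had an unadjusted p under 0.05 (against 19.1%), 4 had both knockouts below both controls (31.2%) and 1 had both above (21.9%), and the median log2 change was -0.50. Elf1, an ETS activator best known from lymphoid cells, was at 29.8 and 34.3 RPKM in the parental and vector control lines and at 9.84 and 18.6 in the exon 3 and exon 2 knockouts (log2 change -1.18, adjusted p 0.142, and -0.69 after the GC and length correction). Elk4, the remaining ternary complex factor, was at 11.9, 10.8, 6.82 and 4.54 RPKM in the same order (log2 change -0.91, adjusted p 0.197). Etv3, a repressor, was at 8.62, 11.4, 6.64 and 5.27 RPKM, with a log2 change of -0.66 (adjusted p 0.310). The knockouts were the lower pair for each of these 3 genes, which had been named for their separation. Elf5, the ETS factor of luminal alveolar cells, Fev and Spic were at 0 in all 4 libraries.

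Partners and regulators of the members include the beta subunits of GA-binding protein, Srf, the Cic repressor with its Ataxin partners, which silences the PEA3 genes, and the ubiquitin ligase components that degrade PEA3 proteins. All 12 were tested, 4 had an unadjusted p under 0.05 (against 19.1% of all tested genes), and 6 had both knockouts below both controls (31.2%) and 3 both above (21.9%). The median log2 change was -0.09. Gabpb2, a beta subunit that pairs with Gabpa, was at 12.9 and 21.3 RPKM in the parental and vector control lines and at 4.38 and 4.61 in the exon 3 and exon 2 knockouts. The knockouts were nearly equal and far below both controls, and limma gave a log2 change of -1.68 (SE 0.350, adjusted p 0.0969) and -1.51 after the GC and length correction. Gabpb1, the other beta subunit listed, was at 18.6, 19.5, 19.7 and 18.9 RPKM in the same order. Its groups overlapped, with a log2 change of 0.02 (limma, adjusted p 0.985). Atxn1, a partner of Cic, was at 3.67, 4.53, 1.15 and 1.71 RPKM in the same order (log2 change -1.07, adjusted p 0.176). Trib2, a pseudokinase scaffold of the Cop1 ligase, was at 25.9, 13.1, 9.36 and 8.66 RPKM (log2 change -0.96, adjusted p 0.203). For Trib2 the controls differed from each other by more than the vector control did from either knockout.

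Genes that respond to Erk or feed back on it were measured next, since Erk acts on most of the members. Of 15 tested, 4 had an unadjusted p under 0.05 (against 19.1% of all tested genes), 5 had both knockouts below both controls (31.2%) and 1 both above (21.9%), and the median log2 change was -0.31. Spred1, an inhibitor of Ras signaling, was at 35.7 and 18.6 RPKM in the parental and vector control lines and at 8.73 and 14.7 in the exon 3 and exon 2 knockouts (log2 change -1.12, adjusted p 0.179 in limma, and -0.63 after the GC and length correction). Spry4, a feedback inhibitor, was at 18.5, 6.41, 6.18 and 3.89 RPKM in the same order (log2 change -1.02, adjusted p 0.250). Spry2, of the same family, was at 27.1, 18.9, 8.18 and 17.5 RPKM (log2 change -0.86, adjusted p 0.258). In each of these 3 genes the parental line was the highest, and 1 knockout came close to the vector control for Spry4 and Spry2.

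Targets of Srf with the ternary complex factors had 7 tested genes, of which 1 had an unadjusted p under 0.05 (against 19.1% of all tested genes), 3 had both knockouts below both controls (31.2%) and 0 both above (21.9%). The median log2 change was -0.30. Egr1, an immediate early zinc finger factor, was at 56.8 and 44.3 RPKM in the parental and vector control lines and at 22.2 and 28.2 in the exon 3 and exon 2 knockouts (log2 change -0.98, SE 0.312, adjusted p 0.159 in limma). Junb, an Ap-1 subunit, was at 54.4, 92.8, 48.7 and 45.4 RPKM in the same order (log2 change -0.58, adjusted p 0.354), and Fosb, another, had a log2 change of -0.14, which was -0.38 after the GC and length correction. For Egr1 the higher knockout was well under the lower control, while for Junb and Fosb the nearest knockout and control were close.

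Known targets of GA-binding protein gave 6 tested genes, of which 0 had an unadjusted p under 0.05 in limma (against 19.1% of all tested genes), 1 had both knockouts below both controls (31.2%) and 1 both above (21.9%), and the median log2 change was -0.10. Tfb2m, a mitochondrial transcription factor, was at 1.08 and 1.92 RPKM in the parental and vector control lines and at 0.715 and 0.897 in the exon 3 and exon 2 knockouts (log2 change -0.45, adjusted p 0.552 in limma). It passed the filter only through the controls, and the log2 change was 0.04 after the GC and length correction. Cox7c, a subunit of cytochrome c oxidase, was at 1.33, 2.26, 2.44 and 3.71 RPKM in the same order (log2 change 0.55, adjusted p 0.450). These Cox7c values rest on only 8, 11, 11 and 16 reads.

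Invasion genes linked to ETS factors gave 7 tested of 10, of which 2 had an unadjusted p under 0.05 (against 19.1% of all tested genes), 4 had both knockouts below both controls (31.2%) and 0 both above (21.9%), with a median log2 change of -0.39. Mmp9, a gelatinase, was at 3.42 and 3.03 RPKM in the parental and vector control lines and at 0.971 and 0.122 in the exon 3 and exon 2 knockouts (log2 change -1.51, SE 0.412, adjusted p 0.130 in limma). Mmp9 too passed the filter only through the controls, with 6 reads in the exon 2 knockout, so its place in these counts was built in. Met, the receptor of hepatocyte growth factor, was at 34.4, 28.9, 9.02 and 14.7 RPKM in the same order (log2 change -1.37, SE 0.336, adjusted p 0.105). After the GC and length correction the log2 change was -0.68 for Met and -1.57 for Mmp9. Both were named by the study from these libraries, so the count of this list is not independent evidence of its direction. Mmp14, a membrane-anchored metalloproteinase, had a log2 change of -0.21 (adjusted p 0.706).

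**Figure D5:**
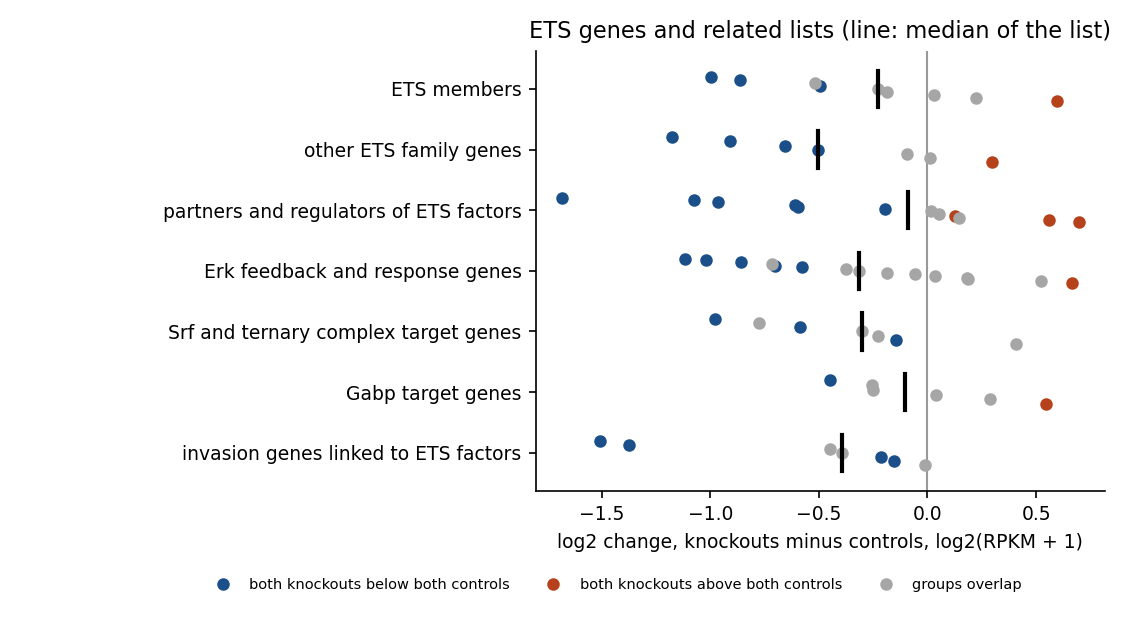
Log2 change (knockouts minus controls, on log2(RPKM + 1)) of each tested gene in the ETS list and 6 related lists, with a black line at each median. Blue marks genes with both knockouts below both controls, red both above, and gray groups that overlap. The medians lie between -0.50 for the other ETS genes and -0.09 for the partners, with the members at -0.23.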

How the data were processed

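Bulk RNA-seq was available for 4 mouse cell lines with 1 library each. The authors deposited 1 table of RPKM values with a column per library, and 0 columns of per-sample values were left unmatched. The processing notes name CASAVA 1.8, GSNAP and GRCm38, and the gene model and counting rule are not given in the sources used here. RPKM scaled with coding length, and whole reads (tolerance 0.001) were recovered for 100% of genes above 0. Totals behind RPKM were 22472024 to 31235456, which sets the precision of each value. Intervals and floors cover counting error only.

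Values were analysed as log2(RPKM + 1) for the 10871 genes with a mean RPKM of at least 1, so a log2 change understates that of low genes. The 2 knockouts were compared with the 2 controls with limma 3.58.1 (R 4.3.3, intensity trend, Benjamini-Hochberg over all genes tested, threshold 0.05), and single genes also by an exact permutation test. The fit was tested on simulated data. Alternatives were a pseudocount of 0.1, 2 scalings, 2 filters, 2 limma priors, voom, a GC and length correction (mgcv 1.9.3), 1.5-fold and leaving out each library. Genes were placed by GENCODE M21, matched by symbol. Other calculations used Python 3.11.15 with scipy 1.17.1.

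The members and the lists were chosen with earlier results of these data known. All 10 members are described. Of the other lists, the text names at most the 3 genes with the greatest absolute log2 change among those whose groups did not overlap, or the 2 most abundant genes where there was none. Gabpb1 is given besides, as the other beta subunit next to Gabpb2. Marker genes below the filter are named as such.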

Additional observations from a re-analysis of the deposited data

How the results depend on the processing

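Across the alternatives run, 0 members had an adjusted p under 0.05, and the lowest adjusted p was 0.148 for Etv1, 0.167 for Gabpa and 0.136 for Elk3. The signs of the log2 changes of Etv1, Gabpa, Etv6, Ets2, Elk1 and Elk3 were the same in each alternative. Etv1 had no value under the filter at 5 RPKM, since its mean is 1.20, and it passed the filter at 1 RPKM only through the controls. All genes called numbered 2, and 1 with a pseudocount of 0.1 or quantile normalization, 0 with median ratio scaling, no filter, voom or the GC and length correction, 32 with the filter at 5 RPKM, 285 with a robust prior, and 3 to 788 when a library was left out. Members with an unadjusted p under 0.05 numbered 2, and 0 with quantile normalization. They numbered 1 with no filter, the filter at 5 RPKM, limma without a trend, voom or the GC and length correction. All tested genes with such a p numbered 2076 of 10871, and 1799 of 10871 with quantile normalization. With no filter there were 2132 of 15405, and with the filter at 5 RPKM 1730 of 8710. Limma without a trend had 2067 of 10871, voom 2038 of 10871 and the GC and length correction 1412 of 10772. Members whose groups did not overlap numbered 4, 3 with the filter at 5 RPKM, and 5 to 8 without single libraries (8 without either control). The share of all tested genes was 53.2%, and 72.0% to 79.2% without single libraries, where a group of 1 library separates more often. Members 2-fold apart in all pairs numbered 0, and 1 with a pseudocount of 0.1, with voom or at 1.5-fold. That member was Etv1, which passed the filter only through the controls, so a lower value in the knockouts was built in. No share of all tested genes is given beside these counts, so they are no result about the members. The median log2 change of the members was -0.23, and -0.38 after the GC and length correction and -0.40 to -0.18 without single libraries. The log2 change of Etv4 was -0.033 with quantile normalization and -0.12 after the GC and length correction, and ran from -0.30 to 0.36 without single libraries, that of Etv5 from -0.43 to 0.88 and that of Ets1 from -0.55 to 0.18, and the cause was not tested. Quantile normalization moved the median of all tested genes from -0.08 to 0.04. No paired analysis was possible because the replicate numbers follow only the order of deposition. Etv1 had only 18 reads in each knockout, and Fli1 had 0 reads in each library.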
